A study of Danio rerio with 2 samples.

Results

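Dense clusters of accessible chromatin were examined in neuroblastoma cells of transgenic zebrafish. Peaks of the MYCN list and the MYC list on chromosomes 1 to 25 were merged into union regions wherever they overlapped by at least 1 bp. Neighbouring regions with 5000 bp or less between them were joined, and chains of 5 or more regions were kept. Of 89831 union regions, 4443 (4.95%) lay in 750 such chains. The chains were therefore chosen from the peak positions of both lists, and their number, size and density are given as a description with no test.

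The assay was ATAC-seq, in which the Tn5 transposase cuts and tags open chromatin. One group was tumour cells of MYCN transgenic fish and the other was tumour cells of MYC transgenic fish, and each was represented by 1 library with no replicate. In both groups the cells were sorted by flow cytometry for a dbh:EGFP reporter, and 50000 cells entered each transposition. The reporter takes its name from dbh, the gene of the enzyme that turns dopamine into noradrenaline, which marks sympathoadrenal cells such as neuroblasts. The labels give neither the age of the fish nor the number of tumours behind a library, and they do not name the promoter that drives either transgene. The lists hold no gene names, so the labelled cell type could not be checked against its markers. Every difference given below is one between a pair of libraries, and how far tumours of one kind differ among themselves is not known from them. The 95% Wilson intervals cover counting error over regions only, and neighbouring regions are not independent.

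Open sites mark promoters, enhancers and other stretches of DNA where nucleosomes give way to bound proteins. They are unevenly placed along chromosomes. Dense groups of enhancers, often called super-enhancers, are known in neuroblastoma near genes for the transcription factors that define the noradrenergic and mesenchymal cell states. Groups of open sites also occur where promoters of small genes lie side by side, and where a DNA element is repeated in tandem. The MYCN and MYC proteins bind mainly to DNA that is already open. Peaks in the present files are known by position only, on the zebrafish build danRer7, with starts counted from 1.

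Most chains were small. There were 433 chains of 5 regions (57.7%), 177 of 6, 60 of 7, 33 of 8, 14 of 9 and 33 of 10 or more, and the largest held 24. The median chain spanned 12768 bp (quartiles 9747 and 16066, range 2682 to 54383). Peaks covered a median of 16.4% of a chain's span, from 8.09% to 72.0%. All chains together spanned 10.1 Mb, or 0.745% of the 1357 Mb up to the last peaks of the chromosomes. The densest of all lay on chromosome 2 at 32103385 to 32106151, where 6 regions covered 72.0% of 2767 bp.

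Inside the chains, 3693 gaps separated neighbouring regions. Their median was 2272 bp (quartiles 682 and 3635), and 21.4% were 500 bp or shorter. Among the 25269 gaps of up to 5000 bp in shorter runs of regions, the median was 2132 bp and 23.8% were 500 bp or shorter. Both sets of gaps were cut at the same 5000 bp, and chains were set apart from shorter runs by their number of regions alone. Within that limit, gaps in chains were on the median no shorter than those in shorter runs. Just inside the limits there were 433 chains of 5 regions with a median span of 11464 bp, and 377 of the gaps were longer than 4500 bp. Just outside there were 1333 runs of 4 regions with a median span of 8373 bp, and 98 gaps of more than 5000 and up to 5500 bp lay at the end of a chain.

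The largest chain lay on chromosome 17 at 46609131 to 46655299, where 24 regions were spread over 46.2 kb. Of these, 18 were called in both lists, 4 in MYCN only and 2 in MYC only. The MYCN list had 22 peaks there, with region scores of 44 to 737 and a median of 152. The MYC list had 20, with scores of 38 to 600 and a median of 120. The score is the authors' value per peak, and it is compared here only among peaks of the same list. The strongest region, at 46644941 to 46645494, was the same in both lists, ranking 161 in MYCN and 2379 in MYC. This chain would also have been found from either list alone, as 22 consecutive regions in MYCN and a stretch of 17 in MYC.

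The second largest chain lay on chromosome 8 at 45701009 to 45723278, with 17 regions in 22.3 kb. It held 9 shared regions, 7 MYCN-only regions and 1 MYC-only region. Its highest scores were 516 in MYCN and 391 in MYC, both in the last region. The strongest of its MYCN-only regions scored 247 (45722251 to 45722548), while the other 6 scored 28 to 109. The list-only regions were therefore not all weak.

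Both chains of 15 regions also held more MYCN-only than MYC-only regions. One, on chromosome 2 at 18573362 to 18595513, had 10 shared, 4 MYCN-only and 1 MYC-only region, with highest scores of 399 in MYCN and 286 in MYC. The other, on chromosome 17 at 47992972 to 48012459, had 9 shared regions, 6 MYCN-only regions and no MYC-only region. Its highest scores were 348 in MYCN and 408 in MYC.

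There were 6 chains of 14 regions. On chromosome 8, a pair at 36377472 to 36408743 and at 36415719 to 36442984 lay 6975 bp apart and together held 28 regions over 65.5 kb. The first of them had 12 shared and 2 MYCN-only regions, and the second had 10 shared, 3 MYCN-only and 1 MYC-only. The most fully shared of the 10 largest chains, on chromosome 10 at 16773674 to 16798157, had 13 regions in both lists and 1 in MYCN only. Its highest scores of 769 in MYCN and 793 in MYC fell in the same region, at 16775192 to 16776025. On chromosome 4, the chain at 27863472 to 27883420 had 12 shared regions and 1 of either other kind. On chromosome 2, the chain at 27638977 to 27679461 had 11 shared, 1 MYCN-only and 2 MYC-only regions. The sixth of these chains, on chromosome 13 at 25534632 to 25589014, was the longest of all, at 54.4 kb. It had 4 shared, 2 MYCN-only and 8 MYC-only regions, and among the 10 largest it was the only one in which MYC-only regions were the most numerous kind.

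**Figure D1:**
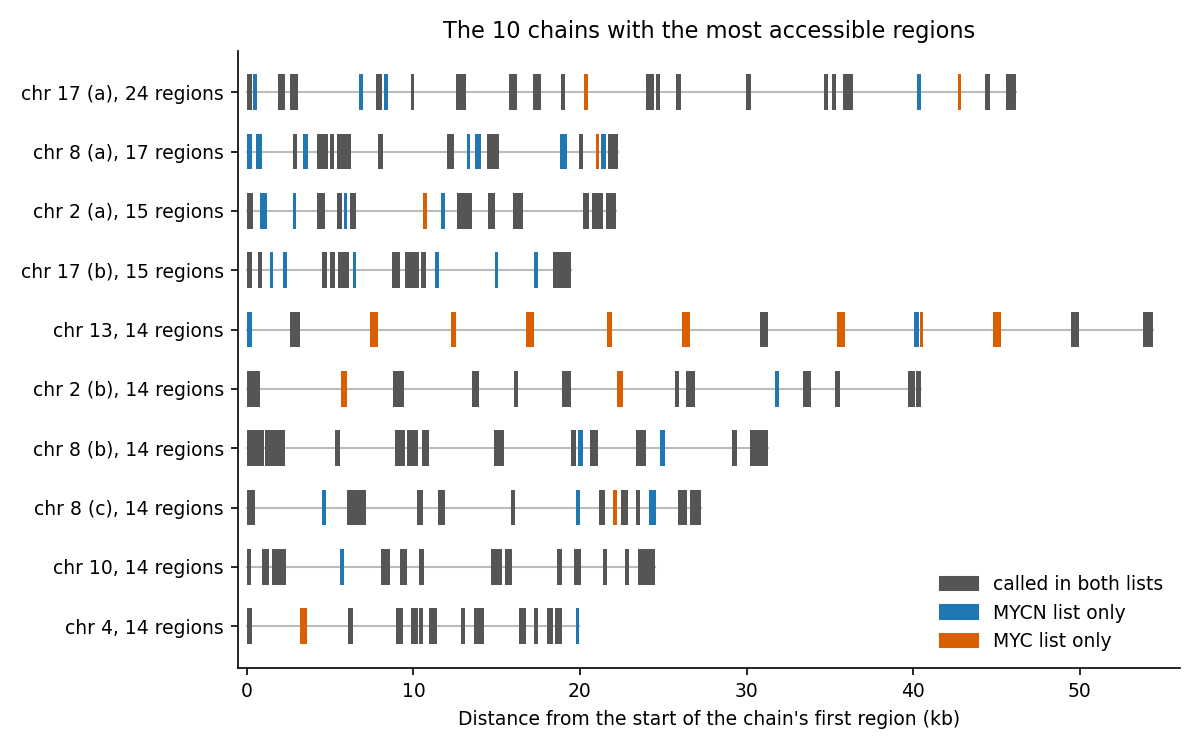
The 10 chains with the most regions, drawn to scale from the first region of each (x axis, kb), with boxes for regions called in both lists (grey), in MYCN only (blue) and in MYC only (orange). The largest chain, on chromosome 17, has 24 regions. Chromosomes with several chains are lettered in order of size. The chain on chromosome 13 is the one with mostly MYC-only regions and wide steps, 11 of 13 over 4 kb.

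Outside the 10 chains with the most regions, the longest in base pairs lay on chromosome 6 at 20461778 to 20513106 (51.3 kb, 13 regions), on chromosome 7 at 20065575 to 20101424 (35.9 kb, 10 regions) and on chromosome 25 at 12793661 to 12828028 (34.4 kb, 11 regions). Regions covered 9.75% to 11.9% of these chains, against a median of 16.4% over all chains. Scores in the chromosome 6 chain were low to middling, at 36 to 125 in MYCN and 43 to 133 in MYC, and 11 of its 13 regions were called in both lists.

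The highest-scoring chained sites belonged to chains of 8 regions. The chain on chromosome 16 at 28154474 to 28167566 began with a region of 1514 bp that scored 1417 in MYCN and 1195 in MYC and ranked 6 in each list. Its 7 other regions scored 81 to 481 in MYCN, and the 5 of them called in MYC scored 51 to 543. The chain on chromosome 10 at 16736013 to 16752648 held the highest MYC score of any chain, 1272 at 16740309 to 16740850, where the MYCN score was 1093. This chain was strong over much of its length, with a median region score of 495 in MYCN and 679 in MYC. It ended 21025 bp before the chain of 14 regions on the same chromosome, so that 22 regions lay within 62.1 kb there, and a further chain of 7 regions followed 5070 bp after the chain of 14.

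Chained regions were shared about as often as all others. Of the 4443 chained regions, 2776 were called in both lists, a share of 62.5% (61.0 to 63.9), against 60.9% of all union regions and 60.8% (60.5 to 61.1) of those outside chains. MYCN-only regions made up 12.1% of the chained regions (11.2 to 13.1), against 14.1% of all regions. MYC-only regions made up 25.4% (24.2 to 26.7), against 25.1% of all regions. Regions at the 2 ends of a chain were shared as often as interior ones, at 62.6% (60.1 to 65.0) and 62.4% (60.7 to 64.2). Only 59 of the 750 chains were made up of shared regions throughout, and 5 had no shared region.

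Many chains did not hold together in each list taken alone. List-only regions help to join a chain, but they were not needed for this. The chain on chromosome 3 at 26227242 to 26243354 had 5 shared regions and no other, yet held no chain in MYCN alone. The MYC list alone gave 499 chains of 5 or more, and the MYCN list alone gave 265. Of the 750 chains, 484 (64.5%) held such a chain in MYC and 239 (31.9%) held one in MYCN. In 160 (21.3%) this was so in both lists, in 324 in MYC only and in 79 in MYCN only. The other 187 (24.9%) held an unbroken chain of 5 regions in neither list alone. Some of them still had 5 peaks in a list, such as the chain on chromosome 17 at 33020642 to 33036483, with 5 in each. The MYC list is longer, with 77834 peaks on these chromosomes against 68556, and the read depth behind either list is unknown, so the difference between 484 and 239 cannot be told apart from a difference in depth.

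The side to which list-only regions belonged varied with the size of the chain. In chains of 5 regions, 72.0% of 829 list-only regions were MYC-only (68.9 to 74.96), against 64.1% of all list-only regions. The share was 69.6% of 398 in chains of 6 (64.9 to 73.9) and 64.0% of 300 in chains of 7 to 9 (58.4 to 69.2). In the 33 chains of 10 or more it was 45.7% of 140 (37.7 to 54.0). MYCN-only regions were more numerous than MYC-only regions in 18 of these 33 chains, less numerous in 10 and equal in 5. Among the chains of 5 they were more numerous in 52 of 433 and less numerous in 262. Leaving out any 1 of the 33 chains gave 43.1% to 47.8%, and leaving out any 1 of their 19 chromosomes gave 43.7% to 49.6%.

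**Figure D2:**
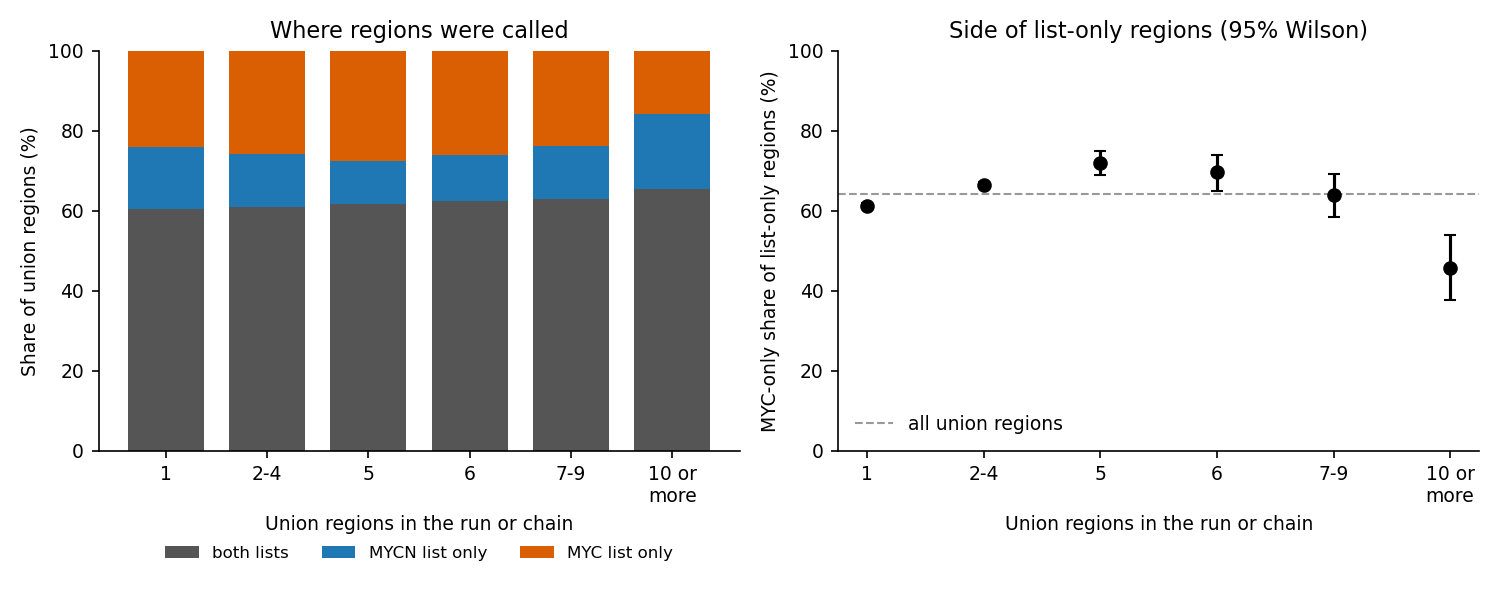
Left, share of union regions (y axis, %) called in both lists, in MYCN only and in MYC only, by the number of regions in the run or chain (x axis). Right, MYC-only share of the list-only regions with 95% Wilson intervals; it falls from 72.0% in chains of 5 to 45.7% in chains of 10 or more, and the dashed line is the 64.1% of all list-only regions.

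Among the large chains, the low MYC-only share lay in the compact ones. In the 15 chains of 10 or more regions with a mean spacing under 2 kb between region centres, 50 regions were MYCN-only and 11 were MYC-only, a MYC-only share of 18.0% (10.4 to 29.5). MYCN-only regions were more numerous in 13 of these 15 chains and equal to MYC-only in 2, and the chains lay on 10 chromosomes. In the 10 large chains with a mean spacing of 2 to 3 kb the share was 58.1% of 43 (43.3 to 71.6), and in the 8 with 3 kb or more it was 77.8% of 36 (61.9 to 88.3). In chains of 5 regions the share was 72.5%, 71.4% and 72.3% in the same 3 classes of spacing. In chains of 6 to 9 it was 63.9% (55.9 to 71.3), 64.8% (59.5 to 69.7) and 73.1% (66.9 to 78.6). The share was thus lower at closer spacing in these chains as well, but their intervals overlapped, and chains of 5 showed no such order. The compact large chains also had a higher median score rank in both lists, taken over regions with a peak in that list. Their median region was at the 64.8th percentile of the MYCN list, against 52.8 over all chained regions. In the MYC list it was at the 56.2th percentile, against 51.6. Shared regions were not compared apart from list-only ones. The size classes and spacing classes were chosen after the values were seen. List-only regions of either kind also count toward the size and spacing of their chain. The shares are therefore not independent of how the chains were classed. For example, the compact chain of 10 on chromosome 16 at 20243798 to 20257721 reached that size with 5 shared and 5 MYCN-only regions. The pattern also depends on the gap allowed in a chain. With gaps of up to 6000 bp the MYC-only share of the chains of 10 or more was 55.5%, and with gaps of up to 10000 bp it was 71.7%.

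Single chains could lean far to either side. The largest MYCN excess, 6 regions, was reached by 3 chains: those of 17 regions on chromosome 8 and 15 regions on chromosome 17 described above, and 1 on chromosome 12 at 15440771 to 15453275. In the chromosome 12 chain 6 of 8 regions were MYCN-only and 2 were shared. Its scores were low, 28 to 114 in MYCN, and 67 and 82 in its pair of MYC peaks. The largest MYC excess, also 6 regions, was reached by the chromosome 13 chain, by a chain on chromosome 18 at 18162370 to 18183873 and by a chain on chromosome 24 at 27962538 to 27976607. The chromosome 18 chain had 3 shared and 6 MYC-only regions, with MYC scores of 51 to 236. The chromosome 24 chain had 6 regions, all MYC-only, with a highest score of 99. Over all 750 chains, 440 had more MYC-only regions, 131 had more MYCN-only regions and 179 had equal numbers. Among 283 chains with 3 or more list-only regions, 76 had MYC-only regions alone, 14 had MYCN-only regions alone and 193 had both kinds.

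Peaks in chains scored much like peaks outside them. The median chained peak was at the 52.5th percentile of score in the MYCN list and at the 51.4th in the MYC list. Chained MYCN peaks had a median score of 103 (quartiles 63 and 187), against 98 (58 and 182) outside chains. Chained MYC peaks had a median score of 115 (67 and 217), against 110 (57 and 228) outside. Chained peaks were slightly narrower, with median widths of 308 bp against 325 bp in MYCN and 314 bp against 338 bp in MYC.

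Peaks were divided into 10 classes by score rank within their list, with equal scores kept together. In the MYC list, 5.06% of all peaks lay in chains. The share was lowest in the lowest class, at 2.92% (2.58 to 3.31), and next lowest in the highest class, at 4.32% (3.89 to 4.80). It was 4.39% in class 3 (3.98 to 4.84) and highest in class 4, at 6.51% (5.95 to 7.12). From class 6, at 6.16% (5.65 to 6.72), it fell with each class up to the highest. The share thus followed no steady order with score over all classes, but it declined over the upper ones. In the MYCN list 4.90% of all peaks lay in chains, and the share ran from 3.61% in class 3 to 6.12% in class 4. It also had no steady order over all classes. It rose from 4.99% in class 5 to 5.42% in class 8 and then fell to 4.71% in the highest (4.24 to 5.24). A region with a peak of the highest MYCN class was found in 241 chains (32.1%), and 1 with a peak of the highest MYC class in 277 (36.9%). Counted over single regions, 7.27% of chained regions had a peak of the highest MYCN class (6.54 to 8.07), against 7.62% of all regions. For MYC it was 7.56% (6.82 to 8.38), against 8.65% of all regions.

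**Figure D3:**
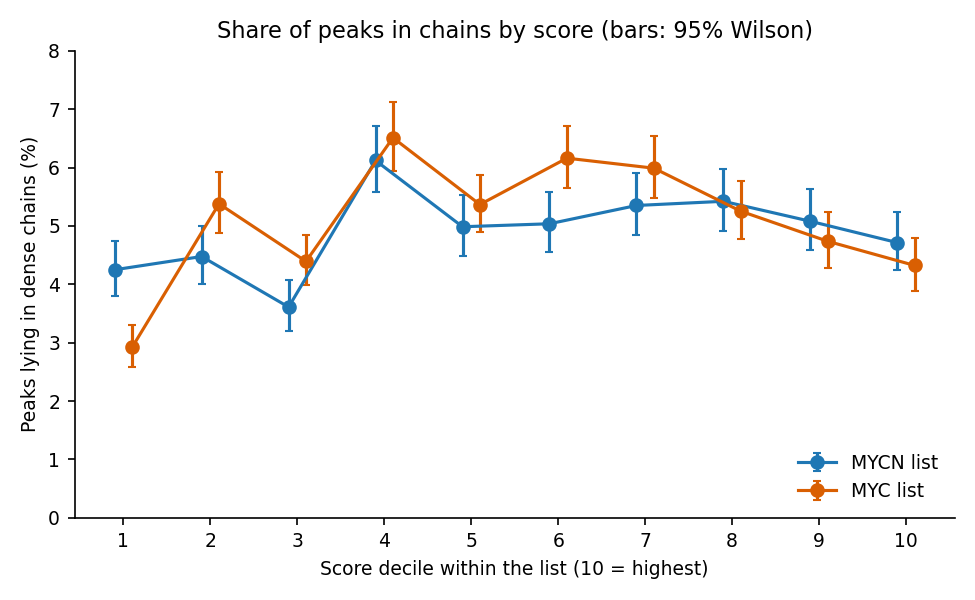
Share of peaks that lie in dense chains (y axis, %) by score class within each list (x axis, 10 is highest), for MYCN (blue) and MYC (orange), with 95% Wilson intervals. The shares zigzag between the lower classes in both lists. In MYC they fall from class 6 to class 10, and in MYCN they rise from class 5 to class 8 and then fall. The lowest MYC class, at 2.92%, is the lowest of all 20 points.

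The best region of a chain scored a median of 241 in MYCN and 320 in MYC. It lay at an end of the chain in 39.1% of 747 chains for MYCN and in 39.7% of 750 for MYC. On average, 35.2% of a chain's regions with a MYCN peak and 35.6% of those with a MYC peak were end regions. Sharing followed score inside chains as it did outside. In the lowest MYCN class, 52.5% of chained peaks (46.9 to 58.1) and 48.9% of other peaks were in shared regions, and in the highest class 99.1% and 99.5% were. In MYC the lowest class had 27.1% (21.9 to 33.0) and 34.3%, and the highest had 98.8% and 99.7%.

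The density of neighbouring peaks stepped up at a distance of 5 kb between peak centres. This is close to the limit that defines the chains, although that limit is measured between the edges of regions, and on that scale the step came slightly sooner. There were 2198 gaps of 4000 to 4500 bp between neighbouring union regions, 2872 of 4500 to 5000 bp and 2857 of 5000 to 5500 bp. Around all peaks of the MYC list there were 11.1 other MYC peaks per 100 peaks per kb at 4 to 5 kb and 16.1 at 5 to 6 kb, a ratio of 1.45. In the MYCN list the ratio was 1.39. Around peaks of the highest class it was 2.08 in MYC, from 8.35 to 17.4, and 1.85 in MYCN, from 7.47 to 13.8. The ratio did not follow score class in order, since it was 1.71 in MYC and 1.41 in MYCN for the lowest class and 1.30 and 1.23 for class 5. The lower density did not hold at every shorter distance. At 500 to 1000 bp neighbours were denser than at 5 to 6 kb, with 21.6 per 100 peaks per kb around all MYC peaks and 19.8 around all MYCN peaks. The settings with which peaks were called are not given in the sources used here, and their part in the step was not tested. The number of chains depends strongly on the gap. A gap of 6000 bp gave 1421 chains with 8644 regions, against 750 chains with 4443.

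**Figure D4:**
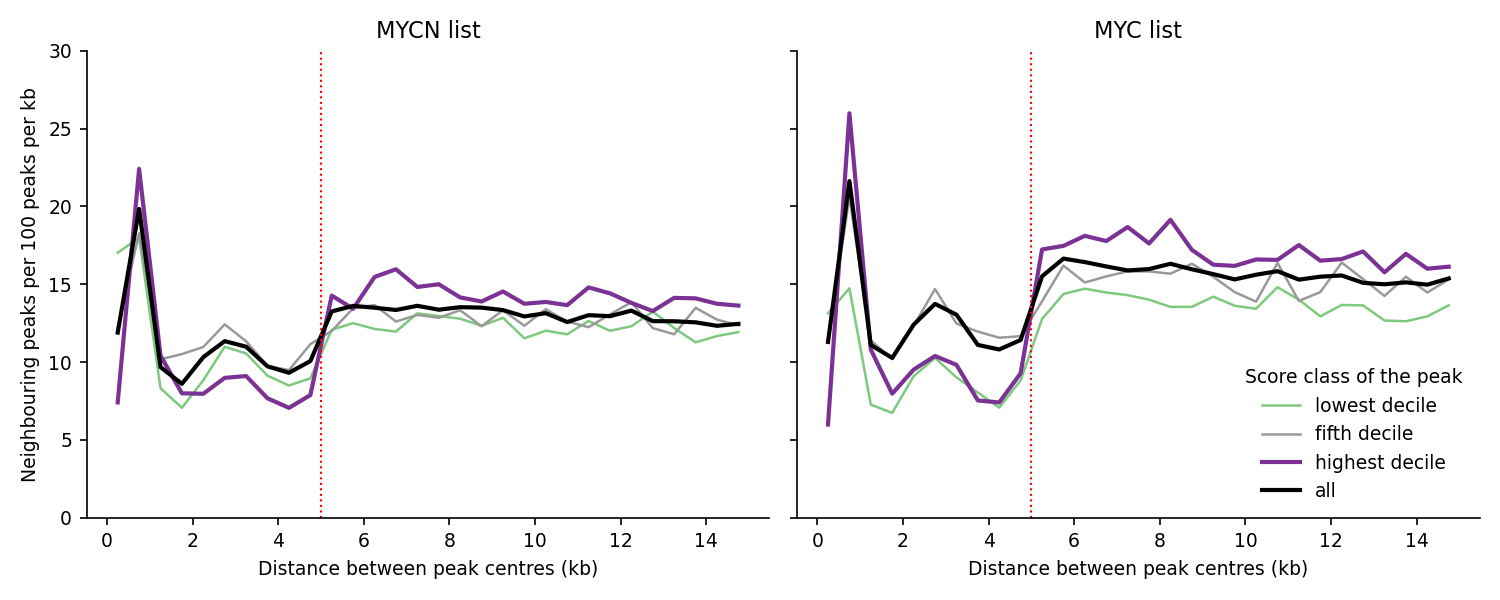
Neighbouring peaks of the same list per 100 peaks per kb (y axis) by distance between peak centres (x axis, kb, in steps of 500 bp), for all peaks and for score classes 1 (lowest), 5 and 10 (highest), with the MYCN list on the left and the MYC list on the right. The curves of all peaks and of the highest class are high at 500 to 1000 bp, lower from 1 to 5 kb, and step up at 5 kb (red dotted line). In class 5 of both lists, density at 2500 to 3000 bp is above that at 5000 to 5500 bp. The lowest MYC class is no higher at 500 to 1000 bp than at some distances beyond 5 kb.

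A few chains had the same spacing repeated along their length. Evenness was measured as the coefficient of variation of the distances between neighbouring region centres, which had a median of 57.3% over the chains (quartiles 40.5 and 75.8). It was below 10% in 8 chains and below 5% in 4. These chains, and the spacing range used next, were picked out after their values were seen, and a chain of 5 regions has only 4 spacings. The most even chain lay on chromosome 1 at 29846889 to 29875362, where 7 regions were 4647 to 4689 bp apart, a mean of 4664 bp with a coefficient of variation of 0.317%. Its regions were also alike in width, from 434 to 501 bp. Of them 4 were shared and 3 MYC-only, with MYCN scores of 44 to 100 and MYC scores of 41 to 117. The next region on either side lay 9332 bp before it and 9324 bp after it, which is 2.00 times the mean spacing in both cases, and the region before that one was a further 4648 bp away. The step did not go on after it, since the following region lay a further 10212 bp on, at 2.19 times the mean spacing.

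Steps within 100 bp of 4664 bp occurred 3 or more times in a chain on each of 3 other chromosomes. On chromosome 6, 9 of the 12 spacings in the chain at 20461778 to 20513106 fell between 4615 and 4715 bp, with a mean of 4654 bp ± 38.2 (SD over 9 spacings). On chromosome 13, in the longest chain, 11 of 13 spacings lay between 4388 and 4778 bp, with a mean of 4625 bp ± 119 (SD over 11 spacings). The 7 within 100 bp of 4664 bp averaged 4666 bp ± 70.4 (SD over 7 spacings). On chromosome 22, 3 of 5 spacings in the chain at 26940607 to 26959406 averaged 4660 bp ± 61.3 (SD over 3 spacings). The means over 9, 7 and 3 spacings cover only those chosen to lie within 100 bp of 4664 bp. Their closeness to 4664 bp therefore follows from that choice. With the chromosome 1 chain, those on chromosomes 6, 13 and 22 were the only chains with 3 or more spacings in that range of 200 bp. Of the 4, 3 had 5 or more. In each of 16 other ranges of 200 bp between 1964 and 5364 bp, at most 2 chains had 3 or more spacings, and none had 5 or more. The most in 1 chain there was 4, above the 3 on chromosome 22. At least 1 spacing in the range at 4664 bp was found in 107 chains, against 102 to 138 chains in the other ranges. Single steps of this size were thus not more common than others. The range at 4664 bp was centred on the mean of the chromosome 1 chain, while the others were not centred on any chain. Spacings below 1964 bp were not scanned, and that edge cuts through the chromosome 18 steps given below. Chains of 5 regions have too few spacings to reach 5. These counts therefore cannot show that the 4664 bp step is the only repeated one. Median region scores were low to middling in all 4 chains, at 43.5 to 88 in MYCN and 87 to 115 in MYC. Their highest scores were 100 to 192 in MYCN and 117 to 304 in MYC. Called sides differed, since 8 of 14 regions on chromosome 13 were MYC-only and 11 of 13 on chromosome 6 were shared. Median region width was 477 bp on chromosome 1 and 482 bp on chromosome 6 (310 to 553). It was 459.5 bp on chromosome 13 (212 to 610) and 409.5 bp on chromosome 22 (200 to 488). A genome sequence of this build was not used here, so whether the DNA of these chains is alike was not tested, nor was the placing of reads that match several places.

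**Figure D5:**
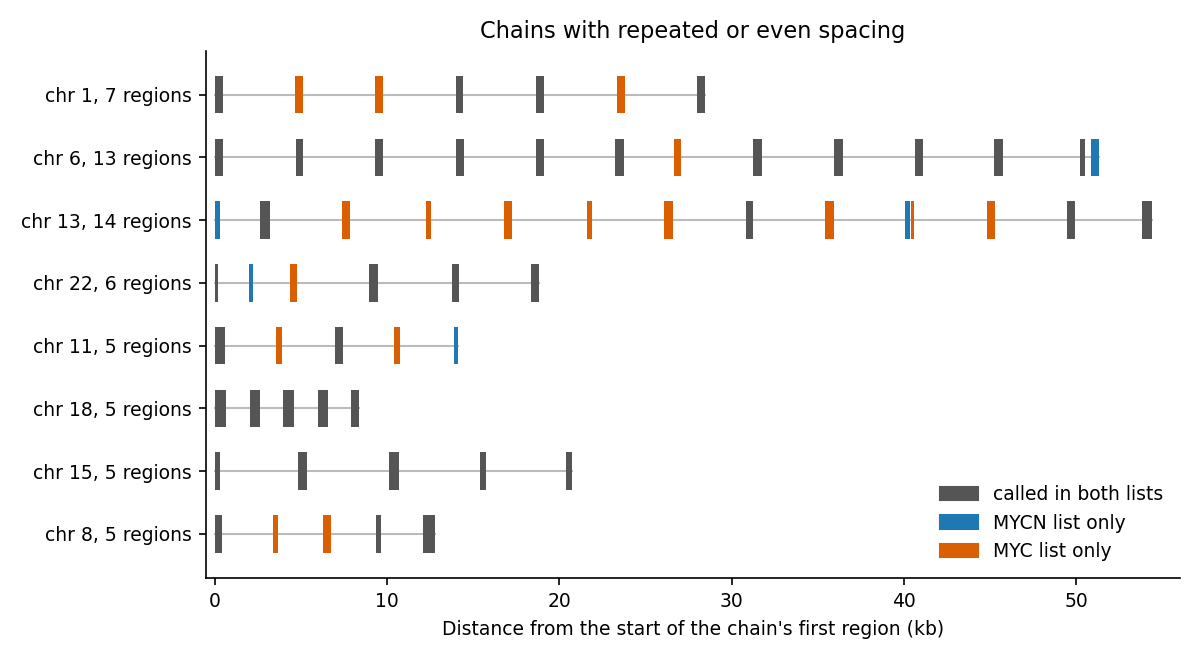
Regions of the 4 chains with a repeated step near 4664 bp (chromosomes 1, 6, 13 and 22) and of 4 further chains with the most even spacing, drawn to scale from the first region of each (x axis, kb) and coloured by where they were called. The 7 regions on chromosome 1 are 4647 to 4689 bp apart.

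Other even chains had other steps. On chromosome 18, 5 regions at 29997652 to 30006042 were 1870 to 2002 bp apart, all of them shared, with scores of 269 to 417 in MYCN and 318 to 499 in MYC. Another chain of 5 shared regions lay 6927 bp before it, at 29981194 to 29990724, with 3 of its 4 spacings between 1908 and 2030 bp and scores of 197 to 469 in MYCN and 336 to 529 in MYC. The chain on chromosome 15 at 21758673 to 21779401 had 5 shared regions at a mean of 5106 bp, and the chain on chromosome 11 at 43480044 to 43494155 had 5 regions at a mean of 3429 bp, of which 2 were shared.

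Chains were not equally common along the genome. The share of a chromosome's regions that lay in chains ran from 2.69% on chromosome 12 (2.18 to 3.31) to 7.01% on chromosome 3 (6.30 to 7.80), around the 4.95% of all regions. Chromosome 15 came next at 6.88% (6.07 to 7.79) and chromosome 25 was low at 3.19% (2.58 to 3.95). The number of regions per Mb differed less, at 63.2 on chromosome 12 and 70.5 on chromosome 3. On chromosome 4, whose long arm is known to be heterochromatic, 27 chains began in the first 22 Mb (1.23 per Mb) and 10 in the rest (0.249 per Mb). All union regions were also denser in the first stretch, with 1909 regions (86.8 per Mb) against 1649 (41.1 per Mb), and 8.07% (6.93 to 9.37) against 4.18% (3.32 to 5.26) of them lay in chains. Of the list-only regions in chains, 79.5% of 73 in the first stretch (68.8 to 87.1) and 48.1% of 27 in the rest (30.7 to 66.0) were MYC-only. Of all list-only regions the shares were 83.0% of 873 (80.4 to 85.4) and 54.9% of 863 (51.6 to 58.2), so the difference between the stretches was not particular to the chains.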

How the data were processed

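Reads were processed by the authors with Bowtie2 2.2.1, MACS2 2.1.0 and the zebrafish build danRer7, per the submitters' processing notes. Settings, shifting of reads for Tn5, duplicate removal and any control library are not given in the sources used here. For either library a single peak list was deposited by the authors, with a whole-number score per peak whose smallest value is 13 in both lists. Lists hold no read counts, so depth is unknown, and no test between groups was possible. The 5 mitochondrial peaks were left out.

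Union regions, chains, shares and 95% Wilson intervals were calculated with Python 3.11.15, numpy 2.4.6, pandas 2.3.3 and scipy 1.17.1. Regions and chains were checked against bedtools 2.31.1, which gave the same 89831, 750 and 4443. On simulated lists, 200 of 200 planted chains were recovered. These were planted far apart, with every gap under the limit and no shorter runs between them. The simulation therefore did not check chains at the limits. Figures were drawn with matplotlib 3.10.9.

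Chains named were the 10 with most regions, the 3 next longest, the 3 leaning most to each list and those with the highest scores. Even chains and others were added after their values were seen. The chains, rules and alternatives were chosen with earlier results of these data known.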

Additional observations from a re-analysis of the deposited data

How the results depend on the processing

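Each of 10 results was recomputed under 10 settings, and 46 of the 100 values stayed within the main interval or, for counts, within 1.5 times. Some of these could not move. The reciprocal rule changes only which regions count as shared, and a minimum size of 4 or 8 leaves the chains of 10 or more unchanged. The 750 chains with 4443 regions became 102 with 579 at a gap of 2500 bp, 3985 with 28367 at 10000 bp, 2083 with 9775 for chains of 4 or more, 80 with 796 for chains of 8 or more, 95 with 562 for peaks at or above the median score, and 1421 with 8644 at 6000 bp, a gap chosen after seeing the data. The shared share of chained regions was 64.6% at 2500 bp, 64.5% for chains of 8 or more, 64.0% with the MYC list trimmed to the length of the MYCN list and 57.8% with reciprocal overlap of 50%. Outside chains it was 59.6% at 10000 bp, 60.4% above the median score, 61.5% with the trimmed list, 61.1% with peaks within 100 bp merged, 55.9% with reciprocal overlap and 61.2% without chromosome 4. The MYC-only share of list-only regions was not recomputed outside chains under these settings. Its changes in chains can therefore not be told apart from changes over all list-only regions. The MYC-only share of list-only chained regions, 67.8% in the main setting, was 56.1% at 2500 bp, 71.0% at 10000 bp, 51.6% for chains of 8 or more, 50.7% above the median score and 57.8% with the trimmed list. In chains of 10 or more it was 0% at 2500 bp (0 to 43.5), 71.7% at 10000 bp, 55.5% at 6000 bp, 9.52% above the median score and 25.3% with the trimmed list, and in smaller chains (69.8% in the main setting) it was 57.5% at 2500 bp, 57.3% for chains of 8 or more, 55.3% above the median score and 60.4% with the trimmed list. The order of the 2 size classes was the same in every setting but the gap of 10000 bp. The reciprocal rule could not alter it, however, and minimum sizes of 4 and 8 could alter only the smaller chains. For chains of 8 or more, the intervals of the 2 classes overlapped (37.69 to 53.97 and 49.15 to 65.15). The shares of peaks of the highest MYCN and MYC classes that lay in chains were 0.803% and 0.463% at 2500 bp, 32.8% and 34.3% at 10000 bp, 9.94% and 9.71% for chains of 4 or more, 1.15% and 0.772% for chains of 8 or more, 1.49% and 0.965% above the median score, 4.22% and 3.85% with the trimmed list, and 9.40% and 9.26% at 6000 bp. The share of chains also found in each list alone was 27.5% at 2500 bp, 36.8% at 10000 bp, 25.8% for chains of 4 or more and 15% for chains of 8 or more. Wider gaps and smaller minimum sizes admit more regions by construction. The reciprocal rule can only lower the shared share, and trimming takes out MYC peaks alone, those of lowest score. The cause of the other changes was not tested.

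No paired analysis was possible because only 1 library stood for either transgene, and for the same reason leaving out replicates was not done. The unknown depth of either library limits every count of peaks and every statement that a region was called in 1 list only.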

Other observations

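Chains themselves lay near each other in places. The median distance from a chain to the next on its chromosome was 977 kb, but 20 pairs lay within 10 kb and 64 within 50 kb. By count of chains in windows of 1 Mb, chromosome 1 at 40 to 41 Mb came first with 6 chains and 31 regions, of which 23 were shared, 2 MYCN-only and 6 MYC-only. Chromosome 4 at 15 to 16 Mb had 5 chains with 30 regions, of which 19 were shared, 1 MYCN-only and 10 MYC-only. Chromosome 15 at 46 to 47 Mb had 5 chains with 26 regions, of which 17 were shared, 1 MYCN-only and 8 MYC-only.

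Besides the chain on chromosome 24, 4 chains, each of 5 regions, had no shared region. All regions were MYC-only in a chain on chromosome 1 (29920129 to 29934211) and in one on chromosome 3 (27060844 to 27070133). In the chains on chromosome 15 (23916905 to 23926611) and chromosome 22 (9400632 to 9412473), 4 regions were MYC-only and 1 was MYCN-only. The chain on chromosome 1 began 44766 bp after the evenly spaced chain of 7 regions.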
